A study of Mus musculus with 51 samples.

Results

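Of 25578 merged H3K4me3 sites on the autosomes, 375 were called in zygonema at a transcription start site (TSS) and were missing from every later H3K4me3 list. The members were chosen by these measured peaks: a site needed a peak in both zygonema lists, none in the 6 lists of the later stages, and a GENCODE M21 transcript 5′ end within 500 bp. They made up 3.00% of the 12509 sites at a TSS, and another 3125 zygonema-restricted sites, called distal sites here, lay away from TSSs. The samples used came from whole testis of adult male wild-type C57Bl/6J mice, from which nuclei of primary spermatocytes were sorted by intranuclear markers into the leptonema and zygonema stages and the later stages of early and late pachynema and of diplonema. Leptotene nuclei came from a sort of their own, with STRA8 as a marker, and the other 4 stages from a second sort, and none of the populations was wholly pure, the zygotene one least of all. The lists used came from chromatin immunoprecipitation followed by sequencing (ChIP-Seq) with an H3K4me3 antibody from EpiCypher (2 lists per stage), an Abcam antibody labelled H3K4me2/3 (1 list per stage) and an H3K9ac antibody (1 list per stage), and further replicates that the study's methods name were not analysed here. The 20 peak lists held 4883 to 15699 peaks for H3K4me3, 17561 to 30943 for H3K4me2/3 and 516 to 16003 for H3K9ac. In experiments 1 and 2 the H3K4me3 lists held 15699 and 11314 peaks in zygonema and 6647 and 4883 in early pachynema. They held 5189 and 9124 in late pachynema and 6645 and 12071 in diplonema. With every H3K4me3 list cut to its 4883 widest peaks the rule gave 182 members. How far list length accounts for missing later peaks was not tested. Leaving out zygonema experiment 1 or 2, so that 1 zygonema list sufficed, gave 565 or 827 members. A peak list gives presence and extent, not signal, so a missing peak means that the site did not pass the peak caller in that library.

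H3K4me3, trimethylation of lysine 4 on histone H3, marks the start of active and poised genes, above all at promoters rich in CpG dinucleotides. In early meiotic prophase the germ cell methyltransferase PRDM9 writes the same mark mostly away from promoters, on nucleosomes beside the DNA sequence that its zinc fingers bind, and these places become the hotspots of meiotic DNA double-strand breaks. H3K9ac, acetylation of lysine 9, accompanies H3K4me3 at active promoters. A TSS window therefore can hold either kind of mark. The label of these members as promoters was checked against the position of the peak and its base composition. It was also checked against calls in the lists for which the rule set no condition.

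The members fell into a CpG-rich and a CpG-poor kind, and the stretches below, on GRCm38 (mm10), are picked examples from each. The first pair are the 120 bases before the 5′-most TSS at the site of Dmc1 (chr15:79605110-79605229, minus strand) and of Mtrf1l (chr10:5823911-5824030, minus strand), read in the direction of the gene, with each CG in capitals. They hold 8 and 8 CG dinucleotides.
Dmc1: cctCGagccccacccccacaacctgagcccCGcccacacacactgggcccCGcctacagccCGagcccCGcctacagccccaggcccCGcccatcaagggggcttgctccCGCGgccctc
Mtrf1l: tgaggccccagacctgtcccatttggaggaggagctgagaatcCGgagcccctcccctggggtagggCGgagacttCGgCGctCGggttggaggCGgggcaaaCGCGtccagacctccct
The other stretches are 80 bases around a searched 8 bp word, in capitals, at members whose peak lay beside the TSS. The words were taken from distal sites only, and 72 of 270 CpG-poor members (26.7%) held one within 100 bp of the center. These stretches therefore do not stand for all CpG-poor members. Each of the 80-base stretches lies in an intron. The one at Mov10l1 (chr15:89019706-89019785, plus strand; its nearest annotated TSS is the small nuclear RNA gene Gm23737) belongs to a member named from the gene lists, and those at Sema3f (chr9:107693910-107693989, plus strand), Chaf1a (chr17:56056308-56056387, plus strand) and Frmd5 (chr2:121550804-121550883, minus strand) were taken in order of rank after the values were seen, passing over stretches in a UTR.
Mov10l1: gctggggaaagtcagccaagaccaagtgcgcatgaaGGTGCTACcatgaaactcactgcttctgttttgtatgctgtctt
Sema3f: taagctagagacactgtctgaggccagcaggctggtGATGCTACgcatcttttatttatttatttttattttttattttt
Chaf1a: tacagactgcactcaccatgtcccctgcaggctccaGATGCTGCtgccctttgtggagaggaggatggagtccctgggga
Frmd5: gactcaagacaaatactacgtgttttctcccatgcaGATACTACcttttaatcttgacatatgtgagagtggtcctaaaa

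The zygonema peaks of many members were not centered on a TSS. The center of a site was the mean midpoint of its zygonema peaks, and a site counted as centered when that point lay within 250 bp of the nearest TSS. By this measure 162 members were centered and 213 (56.8%, 95% exact binomial interval 51.6% to 61.9%) lay beside the TSS, 96 upstream and 117 downstream. The majority turned with the rule: the share off a TSS was 44.2% without zygonema experiment 1, 48.5% without early pachynema experiment 1, 46.6% with a peak in either zygonema list, 43.6% with 1 later list allowed, 49.4% with a TSS window of 250 bp, and 37.9% when centered meant within 500 bp. The median distance from center to TSS was 341 bp, with quartiles of 106 and 744 bp. For comparison, 5935 TSS sites were kept after zygonema, with peaks in both zygonema lists and in 1 or more later lists. Their median distance was 79 bp, and 10.3% of them lay off a TSS. A TSS fell inside the peaks of both zygonema lists at 153 members (40.8%) and at 80.3% of the kept sites. For 108 members the TSS was outside the merged site altogether, within the 500 bp margin of the rule.

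**Figure D1:**
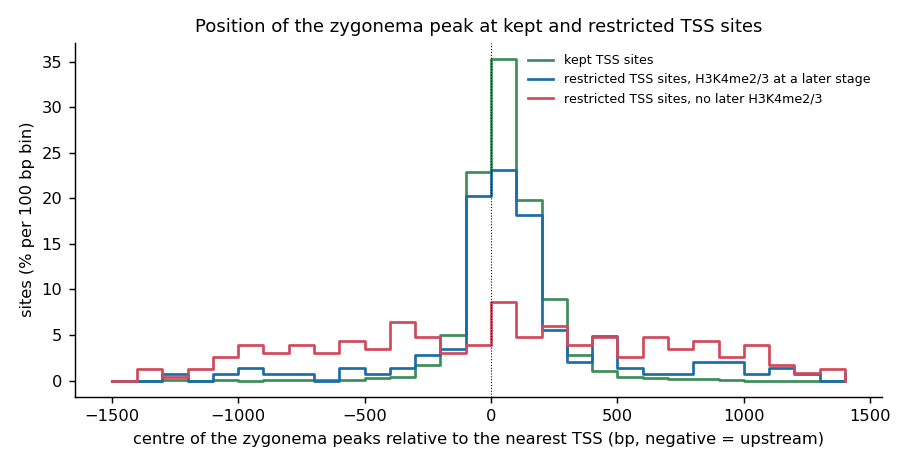
The share of sites (y axis, percent per 100 bp bin) is plotted against the center of the zygonema peaks relative to the nearest TSS (x axis, bp), for kept TSS sites and for restricted TSS sites with and without an H3K4me2/3 peak at a later stage. Kept sites and the 143 members with a later H3K4me2/3 peak pile up at the TSS, while the 232 members without one spread over the window.

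The 12 lists for which the rule set no condition, called lists not used by the rule here, gave the members' other calls. Of these, the leptonema H3K4me3 lists were still merged into the sites. In leptonema, 66.1% of members had an H3K4me3 peak in experiment 1 and 62.7% in experiment 2, against 60.9% and 77.6% of all TSS sites and 96.8% and 99.2% of kept ones. The order against all TSS sites in experiment 1 turned with the zygonema lists, as the members' share there was 50.1% without zygonema experiment 1, 44.3% without zygonema experiment 2 and 40.0% with a peak in either. In these lists 212 members were called in both experiments, 59 in 1 and 104 in neither. H3K4me2/3 was called at 90.1% of members in leptonema and 99.7% in zygonema, against 92.7% and 90.7% of all TSS sites. At the later stages H3K4me2/3 was called at 36.3% of members (early pachynema), 31.7% (late pachynema) and 25.1% (diplonema), against 83.2%, 86.9% and 85.5% of all TSS sites. H3K9ac was called at 92.3% of members in zygonema, against 97.9% of kept TSS sites, which also have both zygonema H3K4me3 peaks, and 65.4% of all TSS sites, many of which do not. Without zygonema experiment 1 or 2 in the rule the members' share was 67.8% or 77.1%. Outside zygonema H3K9ac calls were scarce: 6.40% of members in leptonema, 9.33% in early pachynema and 0 of 375 both in late pachynema and in diplonema, which allows a share of up to 0.800%, against 21.6%, 54.3%, 12.9% and 3.39% of all TSS sites. The late H3K9ac lists were short, with 1727 and 516 peaks. With 1 list per stage for these marks, no difference between stages was tested. Per the study, the sorted early pachytene population held some zygotene nuclei, and their part in the early pachynema calls was not tested.

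Members were called more often than distal sites in the lists not used by the rule. The share called was higher at members in 10 of the 12 lists and 0 at both in the other 2, by a mean of 14.6 percentage points (SD 12.4, n = 12 lists; adjusted p = 0.00391, two-sided exact permutation test over the lists, Benjamini-Hochberg adjustment over 2 tests). The unadjusted p of 0.00195 was the smallest that 10 differing lists allow. The gap was 30.7 points for H3K4me2/3 in early pachynema and 30.2 points for H3K4me3 in leptonema experiment 2. It was 1.81 points for H3K4me2/3 in zygonema, where 97.9% of distal sites also had a peak. The leptonema H3K4me3 lists took part in merging, so their peaks could widen a site towards a TSS and into membership. With leptonema experiment 1 or 2 left out of both merging and test, the difference was 13.7 or 13.1 points (adjusted p = 0.00781 for each, exact permutation test). Leaving out both at once was not run. Lists of 1 stage may share sorted nuclei or chromatin with lists that the rule used, so the test compares 2 kinds of site and not zygonema with later stages. Lists of the same stage and experiment may also share nuclei with each other, and with these averaged to 10 units the mean difference was 13.9 points (adjusted p = 0.0156, exact permutation test). Among CpG-poor sites alone, with an observed to expected CpG ratio under 0.6, the difference was 5.96 points (adjusted p = 0.00391, exact permutation test). Peak width was not matched. Median zygonema widths in experiments 1 and 2 were 996 and 652 bp at distal sites. They were 1120 and 871 bp at off-TSS members and 656 and 432 bp at centered ones.

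Over all members, those off a TSS were called less often in the other lists than those centered on one, but not among CpG-poor members taken alone. Their share called was lower in 9 lists, higher in 1 and 0 at both in 2, with a mean difference of -15.0 percentage points, off minus centered (SD 18.2, n = 12 lists; adjusted p = 0.00586, same test), and -16.4 points over the 10 averaged units (adjusted p = 0.0234, exact permutation test). Among the 270 CpG-poor members the direction turned, to 2.87 points higher off a TSS, and did not pass the test (adjusted p = 0.0977, exact permutation test). Among the 105 CpG-rich members the difference was -3.11 points (adjusted p = 0.5, exact permutation test). With 12 of them off a TSS and 93 centered, this cannot decide whether the difference holds there. The CpG limit was set after the values were seen. At CpG-poor members leptonema H3K4me3 was called at 61.7% and 53.7% off a TSS and at 46.4% and 40.6% centered, in experiments 1 and 2. Without regard to CpG, the widest gaps were in H3K4me2/3 after zygonema: H3K4me2/3 was called at 16.9% of off-TSS and 61.7% of centered members in early pachynema, at 12.7% and 56.8% in late pachynema, and at 7.98% and 47.5% in diplonema. Early pachynema H3K9ac was called at 21.6% of centered members and at 0 of 213 off a TSS, which allows up to 1.41%. In zygonema the order of H3K9ac was the opposite, 93.9% off a TSS and 90.1% centered. Within the 6 leptonema and zygonema lists alone the mean difference was -5.06 points and did not pass the test (adjusted p = 0.0938, exact permutation). An H3K4me2/3 peak at all 3 later stages was found at 76 of the 162 centered members and at 13 of the 213 others.

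**Figure D2:**
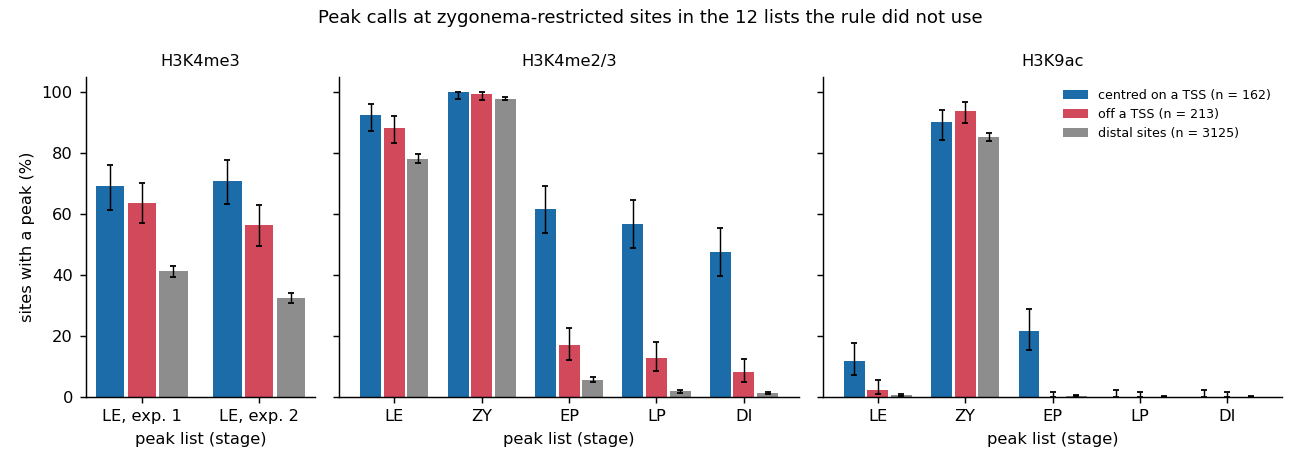
Bars give the percent of sites with a peak (y axis) in each of the 12 lists the rule did not use (x axis; LE and ZY are leptonema and zygonema, EP and LP early and late pachynema, DI diplonema), for centered members, off-TSS members and distal sites, with exact binomial 95% intervals that cover counting error over sites only. All 3 classes are near the top for zygonema, and only the centered members keep H3K4me2/3 calls near or above 47.5% afterwards.

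The ratio of observed to expected CpG in the 500 bp at the center had a median of 0.268 over all members, with quartiles of 0.146 and 0.660. The median was 0.670 at centered members, 0.191 off a TSS, 0.166 at distal sites and 0.896 at kept TSS sites. At a limit of 0.6, set after the values were seen, 105 members (93 centered, 12 off a TSS) were CpG-rich and 270 (69 centered, 201 off a TSS) were CpG-poor. A later H3K4me2/3 peak was called at 103 of the 105 CpG-rich members (98.1%) and at 40 of the 270 CpG-poor ones (14.8%). Among centered members the counts were 91 of 93 and 9 of 69, and off a TSS they were 12 of 12 and 31 of 201 (15.4%). Split by position instead, the counts were 100 of 162 centered members and 43 of 213 off a TSS. By single later stage, from early pachynema on, the shares were 98.1%, 94.3% and 76.2% of CpG-rich members and 12.2%, 7.41% and 5.19% of CpG-poor ones. All TSS sites had 83.2%, 86.9% and 85.5%, and kept ones 99.9%, 99.8% and 99.8%. The Abcam antibody is raised to H3K4me3 and, per the study, also binds the dimethylated form. A later call with it therefore does not tell the 2 forms apart. CpG content was not part of the rule, but the limit was chosen on these sites, and the split was not tested.

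**Figure D3:**
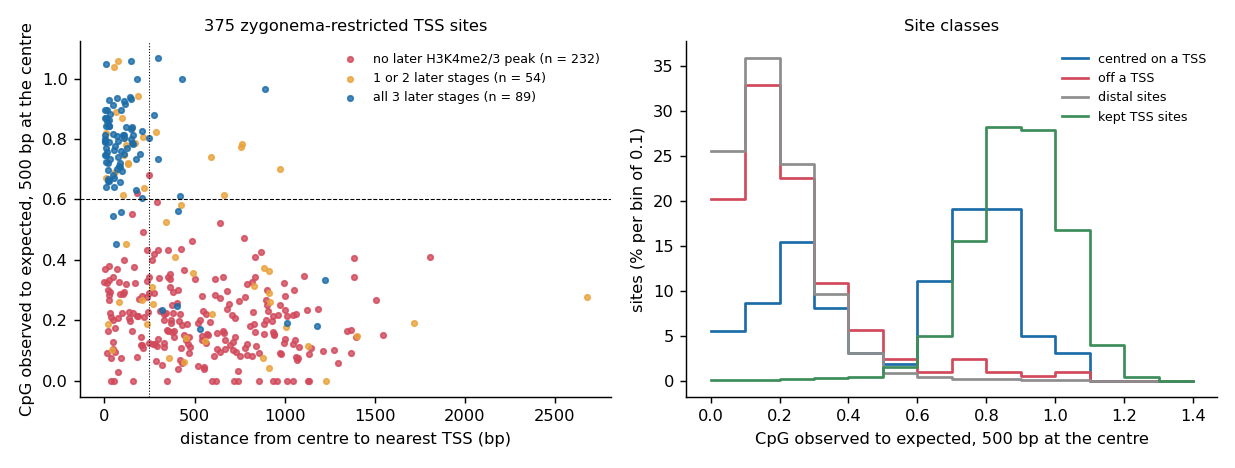
The left panel plots CpG observed to expected at the center (y axis) against the distance to the nearest TSS (x axis, bp) for the 375 members, colored by the number of later stages with an H3K4me2/3 peak, with lines at the limits of 0.6 and 250 bp. The right panel gives the share of sites per CpG bin of 0.1 in each class: off-TSS members lie over the distal sites, kept sites form 1 peak near 0.896, and centered members form 2 groups.

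The widths of the leptonema and zygonema peaks were compared at each site. Of the CpG-rich members called in both stages, the peak was wider in leptonema than in zygonema at 56 of 92 in experiment 1 and at 78 of 99 in experiment 2. Of the CpG-poor members the leptonema peak was the wider one at 8 of 156 and 33 of 136. Those were 5.13% and 24.3%, and distal sites gave 2.26% and 15.2%. Kept TSS sites gave 46.4% and 88.0%, and the share was higher in experiment 2 in all 4 classes. Zygonema peaks took part in the choice of members, so these widths are a description.

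The words searched were GATGCTAC, GGTGCTAC, GGTACTAC, GATACTAC, GCAGCACC, GGTGTTAC, GATGCTGC, GCTACTAC, GCAGTAGC and GCTGCTAC, each on both strands. They are the 10 words of 8 bp with the highest ratio of distal centers to distal flanks, from 6.65 to 9.70, and, read on either strand, each differs from 1 to 5 of the others at a single base. At least 1 word lay within 100 bp of the center at 77 members (20.5%, 95% exact binomial interval 16.6% to 25%). The flanks of the same members held one in 4.60% of windows of the same length, and 5.39% of such windows around all 125891 GENCODE TSS positions did. The share was 24.9% at the distal centers from which the words were chosen, 5.75% at kept TSS sites and 5.14% at the 3266 TSS sites with a peak in all 10 H3K4me3 lists. When zygonema experiment 1 was left out of the rule, the members' share was 11.9%. CpG-poor members held a word at 72 of 270 centers (26.7%) and CpG-rich members at 5 of 105 (4.76%). Centred but CpG-poor members held a word at 22 of 69 centers (31.9%), against 50 of 201 CpG-poor members off a TSS (24.9%). Of the 213 off-TSS members, 50 had a word within 100 bp of the peak center and 8 within 100 bp of the nearest TSS. A word match is a description of the sequence and was not tested as a binding site.

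**Figure D4:**
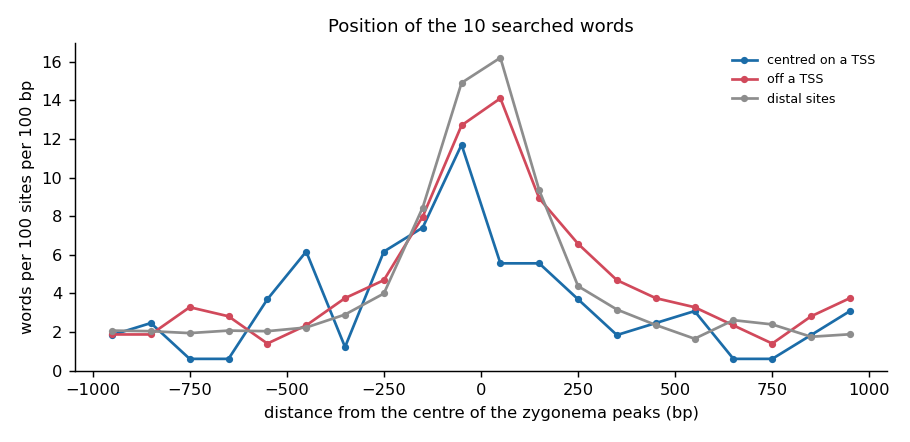
The number of word matches per 100 sites (y axis) is plotted per 100 bp against the distance from the center of the zygonema peaks (x axis, bp) for centered members, off-TSS members and distal sites. At off-TSS members the 2 central bins reach 12.7 and 14.1 words per 100 sites, near the 14.9 and 16.2 of distal sites.

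A protein-coding TSS was present at 271 members (72.3%), against 89.8% of all TSS sites and 98.2% of kept ones. Of the rest, 42 members had a long noncoding RNA gene, 33 a pseudogene, 16 a small RNA gene, 10 a TEC gene, a GENCODE type that awaits experimental support, and 3 another type. A transcript of the GENCODE basic set started at 241 members (64.3%), against 93.8% of all TSS sites. The center lay in an intron at 172 members, in an exon at 143 and outside genes at 60. The 5′-most TSS of a gene was within reach at 87.6% of CpG-rich members, near the 86.1% of all TSS sites and under the 93.4% of kept ones. It was within reach at 46.7% of CpG-poor members. Of the 176 CpG-poor members with a protein-coding TSS, 112 (63.6%, 95% exact binomial interval 56.1% to 70.7%) belonged to a gene that had another TSS with an H3K4me3 peak after zygonema. This held for 10 of 95 CpG-rich members (10.5%, interval 5.16% to 18.5%). Few members were next to a later peak: 15 of 375 lay within 2000 bp of one, and the median gap was 32700 bp. Neither the genes with another marked TSS nor these gaps were counted for kept or all TSS sites. No background share therefore stands beside them.

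The gene lists, which were drawn up with earlier results of these data known, held few members. Over all 20780 protein-coding genes, 1.36% had a member at a TSS, while 11475 had any H3K4me3 site and 6717 had a kept one. Among 48 meiotic prophase genes 2 did, Dmc1 and Mov10l1, while 32 had a kept site. Among 28 spermatogonial genes 2 did, Dmrt1 and Sohlh2, and 3 had a kept site. Among 208 genes of developmental transcription factor families, 2 did, Hoxa10 and Irx2. There was no member at the 41 spermatid genes, the 24 somatic testis markers or the 13 blood cell markers, and no somatic or blood marker had a kept site. Any H3K4me3 site was present at 19 of the spermatid genes, 9 of the somatic markers and 1 of the blood markers, which leaves little room for members. No list was tested against the share over all genes, and counts of at most 2 genes per list are too small to tell whether any list stands apart.

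Dmc1, the meiosis-specific recombinase that pairs broken DNA with its homolog, was a CpG-rich member (ratio 0.792) centered 76 bp downstream of its TSS. Its H3K4me3 peak was 934 and 1093 bp wide in leptonema experiments 1 and 2 and 622 and 181 bp in zygonema. H3K4me2/3 was called at all 5 stages, with widths, from leptonema on, of 2415, 1265, 898, 1021 and 413 bp, and H3K9ac was called in zygonema alone. The peak was narrower in zygonema than in leptonema in both H3K4me3 experiments, and no H3K4me2/3 list lacked it. No other TSS of Dmc1 had a later H3K4me3 peak.

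Dmrt1 and Sohlh2 encode transcription factors of spermatogonia, the cells that precede meiosis. At Dmrt1 (ratio 0.701) the center lay 976 bp inside the gene, and H3K4me3 widths were 1262 and 1658 bp in leptonema and 890 and 328 bp in zygonema. H3K4me2/3 at Dmrt1 was 2768, 1881, 1351 and 367 bp wide from leptonema to late pachynema, with no peak in diplonema. At Sohlh2 (ratio 0.524, 341 bp inside the gene) H3K4me2/3 was 2069, 1870 and 1074 bp up to early pachynema and was not called afterwards. At both genes each H3K4me2/3 peak was narrower than that of the stage before, and neither gene had another TSS with a later H3K4me3 peak. Mov10l1, a helicase of the piRNA pathway, was different: its member had a ratio of 0.195, lay 614 bp upstream of an internal Mov10l1 TSS and 36898 bp downstream of the 5′-most one, and another Mov10l1 TSS had a kept site. That member had no leptonema H3K4me3 peak, zygonema widths of 1134 and 1165 bp, and no H3K4me2/3 peak after zygonema.

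Hoxa10 and Irx2, homeobox genes of body patterning, were CpG-rich (ratios 0.742 and 0.773) with centers 589 and 756 bp inside the gene. H3K4me2/3 at Hoxa10 ended with 583 bp in early pachynema. At Irx2 it was 152 bp in early pachynema and 3463 bp in late pachynema, where a width spans all peaks that touch the site, and a site with a later H3K4me3 peak lay 746 bp away.

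The members with the widest zygonema peaks at a protein-coding TSS were mostly CpG-poor. Ranked by width among all peaks of the 2 zygonema lists, the 10 widest centered ones were Atp1b1, Usp48, Clk1, Mink1, Smc6, Rrp1b, Fabp7, Trrap, Hsd17b1 and Nbas. Atp1b1, a subunit of the sodium-potassium pump, sat at the 250 bp limit and had H3K4me3 widths of 866 and 902 bp in leptonema and 2910 and 2882 bp in zygonema. It was the only one of the 10 over the CpG limit, at 0.682. Smc6, a subunit of a DNA repair complex related to cohesin, had no leptonema H3K4me3 peak and widths of 1650 and 1192 bp in zygonema. Of the 10, 8 had leptonema peaks in both experiments, Nbas had 1 in experiment 1 only and Smc6 had none. None of the 10 had an H3K4me2/3 peak after zygonema, and all 10 had H3K9ac in zygonema.

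Among members called in both leptonema and zygonema, the median zygonema peak of the CpG-rich ones was 450 bp in experiment 1 and 352 bp in experiment 2, against 1270 and 1050 bp for the CpG-poor ones. The 8 highest-ranked CpG-rich members centered at a protein-coding gene with H3K4me2/3 at all 3 later stages, a group named after the values were seen, were Mtrf1l, Ngdn, Rrm2b, Arl15, Hnrnpf, E2f3, Ddb2 and Aptx. Rrm2b, the p53-induced subunit of ribonucleotide reductase, had H3K4me3 widths of 1410 and 1606 bp in leptonema and 1231 and 668 bp in zygonema, and H3K4me2/3 widths of 1390, 1148 and 1244 bp at the later stages. Ddb2, a sensor of ultraviolet DNA damage, had leptonema widths of 1032 and 1346 bp, zygonema widths of 819 and 625 bp, and H3K9ac in leptonema, zygonema and early pachynema. Aptx, which repairs abortive DNA ligation ends, had 433 and 689 bp in leptonema and 609 and 827 bp in zygonema. Wfs1, an endoplasmic reticulum membrane protein, also had H3K4me2/3 at all 3 later stages (867, 376 and 469 bp) but was CpG-poor (ratio 0.171), with its center 532 bp upstream of the TSS.

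The widest members off a TSS were Gm49193, Rtkn2, Nf1, Mbtd1, Trav7n-6, Gm32856, Tmprss7 and Gm31793. At Nf1, which encodes the Ras inhibitor neurofibromin, the center lay in an exon 913 bp downstream of an annotated TSS and widths were 1631 and 1472 bp in leptonema and 2269 and 3067 bp in zygonema. H3K4me2/3 at Nf1 was 435 bp in early pachynema and absent from the later lists. Mbtd1, a chromatin reader, had 1343 and 1447 bp in leptonema, 2103 and 2473 bp in zygonema and nothing later. Rtkn2, centered 1225 bp upstream of its TSS, kept H3K4me2/3 at 1304, 333 and 801 bp. Long noncoding RNA members included Junos, which is transcribed beside Jun, and Fcnaos, with zygonema widths of 1797 and 1881 bp and of 1406 and 2379 bp, and neither had a later H3K4me2/3 peak. All 8 off-TSS members named here had leptonema H3K4me3 in both experiments and H3K9ac in zygonema. Over all members, 199 (53.1%) had leptonema H3K4me3 in both experiments together with H3K4me2/3 in leptonema and zygonema and H3K9ac in zygonema, against 94.8% of kept and 54.4% of all TSS sites.

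**Figure D5:**
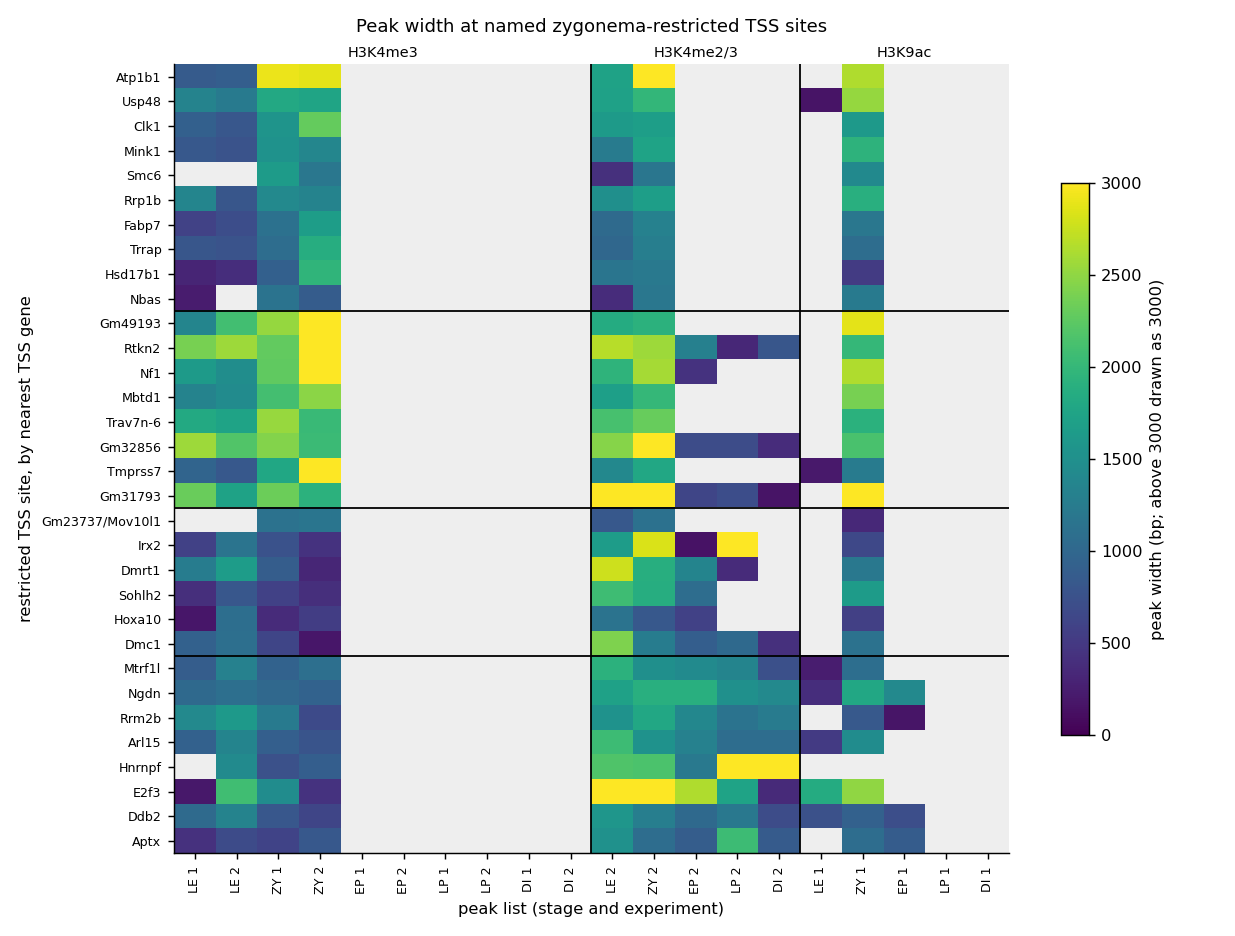
Each row is a named member and each column a peak list (stage and experiment, by antibody), with color giving the width in bp from the first to the last peak that touches the site, and gray no peak. Horizontal lines part the widest centered, the widest off-TSS, the gene-list and the CpG-rich members; the H3K4me3 columns from EP to DI are empty by the rule, and the H3K4me2/3 columns there are filled in the last 8 rows because those members were chosen for it.

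Sites just outside the rule were counted in the same lists. A further 168 TSS sites had both zygonema peaks and exactly 1 later H3K4me3 peak, which was in diplonema experiment 2 for 77 and in early pachynema experiment 1 for 72. Of these, 167 had H3K4me2/3 at 1 or more later stages, against 143 of the 375 members. A further 103 zygonema-restricted sites had a TSS within 1000 bp but not within 500 bp, and 8 of them had a later H3K4me2/3 peak. Of the 375 members, 320 had a TSS within 250 bp of the site, well inside the limit of 500 bp.

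Reads of repeated sequence can be placed on the wrong copy, so the 200 bp at each center were compared with the whole genome in windows of 32 bases. At 300 members no window had a second exact copy, and at 25 (6.67%) over 50% of the windows did. Among these were all 5 members nearest a T-cell receptor V segment, and Gm32856 and Gm31793. Calls at those 25 sites are uncertain.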

How the data were processed

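Nuclei of 5 stages were sorted and profiled by ChIP-Seq. Per the study's methods, the authors aligned reads to mm10 with BWA 0.7.12 and called broad peaks per library with MACS2 2.1.2 against a stage-matched input. The deposited lists give each peak's chromosome, start and end, with no score, p-value or signal, so depth is unknown. The 31 samples of the series with no list were not used here. The H3K9ac lists follow their titles, while their antibody label reads H3K4me3 with the catalog number that the methods give for H3K9ac.

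Peaks of the 10 H3K4me3 lists were merged on chromosomes 1 to 19 and a call needed 1 bp of overlap (Python 3.11.15, numpy 2.4.6). Sequence came from RefSeq GRCm38, on which 2000 of 2000 single-exon GENCODE M21 transcripts matched exactly. The methods name another GENCODE release. A width runs from the start of the first to the end of the last peak touching a site. Tests were two-sided exact permutation tests over lists (scipy 1.17.1) with a threshold of 0.05, checked on simulated data. Intervals are exact binomial at 95% and cover counting over sites only, and 3 counts set the limit of a count of 0. Members were named by the width rank of their zygonema peaks: the 10 widest centered at protein-coding genes, the 8 widest off a TSS, up to 8 called by all antibodies, those in the gene lists, up to 5 at long noncoding RNA genes and up to 5 with H3K4me2/3 at all 3 later stages. Genes with provisional names were partly only counted. A member and 2 stretches of sequence that these rules chose are not reported here. The members and lists were chosen with earlier results of these data known. Nothing says that the 2 experiments used separate animals.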

Additional observations from a re-analysis of the deposited data

How the results depend on the processing

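The difference between members and distal sites kept its sign in all alternatives run. That between off-TSS and centered members turned to 2.87 points among CpG-poor sites and was -3.11 among CpG-rich ones, neither passing the test; these splits were added after the data were seen. Both otherwise passed in all alternatives but those restricted to part of the lists: with H3K4me2/3 lists only, members exceeded distal sites by 19.7 points and off-TSS members differed from centered ones by -26.7 points. With H3K9ac lists only the values were 4.33 and -5.44, and with leptonema and zygonema lists only 13.6 and -5.06. With 5 lists that differ the smallest p possible in this permutation test is 0.0625. Only 3 of the H3K9ac lists differ, and there it is 0.25, so neither restriction could pass. Leaving out any 1 list gave 13.1 to 19.5 and -20.7 to -12.3 points. The number of members was 182 with equal list sizes, 1066 with a peak in either zygonema list, 241 with basic transcripts only, and 374 to 827 when leaving out 1 list. The share off a TSS was 49.4% and 66.1% with TSS windows of 250 and 1000 bp, 69.8% with equal list sizes, 43.6% when 1 later list was allowed, 46.6% with either zygonema list, 50.9% with protein-coding TSSs, 50.2% with basic transcripts, 75.7% and 37.9% with limits of 100 and 500 bp, and 44.2% to 57.0% when leaving out 1 list. The cause was not tested. Without the 25 sites of repeated sequence, chosen after the data were seen, the differences were 14.8 and -16.0 points. With CpG limits of 0.5 and 0.75, also chosen after the data were seen, later H3K4me2/3 was called at 95.6% and 100% of CpG-rich and at 13.4% and 24.7% of CpG-poor members. No paired analysis was possible because each test already pairs 2 shares within a list and each H3K4me2/3 and H3K9ac group holds 1 experiment.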
